A study of Mus musculus with 6 samples.

Results

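The 34 genes described here encode the glycolytic pathway, the carriers and enzymes of lactate and pyruvate, and the factors and targets of the hypoxia response. They were chosen by name, with earlier results of these data known. Of these, 31 had a probe set annotated to them alone among the 18193 genes that the array names, and where a gene had several, the brightest on average stood for it. Of the 31, 30 passed the filter on low signal and were tested, out of 10342 genes tested in all. The exception was Car9, a carbonic anhydrase of the cell surface. Gapdh was read only through control probe sets of the array, and Eno1 and Gpi1 were not analysed here.

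The cells were mpkCCD cells, a mouse kidney line of cortical collecting duct origin, whose principal cells carry the water channel aquaporin 2 (AQP2). As background, the parent line was set up from mice carrying a viral large T antigen under the promoter of the liver-type pyruvate kinase gene. Clone 2 was the 1 line that the labels describe as lacking AQP2, and the 5 lines described as having it were the original cells and clones 3, 9, 10 and 11. All 6 lines had received 0.1 nM dDAVP, a vasopressin analog, over 5 days, no line was left without it, and the sources used here do not give the oxygen or glucose in the culture. Each line gave 1 Affymetrix array, each clone stands for itself alone, and the spread between the 5 expressing lines served as the error, with clone 2 assumed to vary as they do. In such bulk samples, fewer cells with a transcript and less of it per cell cannot be told apart.

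Glycolysis turns glucose into pyruvate in the cytosol, and cells that do not pass pyruvate to the mitochondria reduce it to lactate and export it. When oxygen is low, prolyl hydroxylases stop marking the alpha subunits of the hypoxia-inducible factor (HIF) for destruction, and HIF, paired with ARNT, raises glucose transporters, glycolytic enzymes, pyruvate dehydrogenase kinase and some of the hydroxylases themselves. HIF alpha subunits are controlled largely at the protein level, so their transcripts alone do not report the activity of the pathway. The proximal tubule of the kidney uses little glucose, whereas distal segments and the collecting duct carry out glycolysis.

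HIF binds the core sequence ACGTG or GCGTG, and this core was sought on both strands in the window from 250 bases before to 50 bases after the transcription start, from RefSeq with build GRCm38.p6. Windows were found for 32 of the 34 genes, and 30 of these had a core in at least 1 window, against 46.7% of the 27025 genes with a window. The member windows were richer in G and C, with a median of 63.8% against 52.7% over all windows, and the part of base composition in this share was not tested. The sequences below are those of the carriers Slc2a1, Slc16a3 and Slc16a1 and of the targets Ak4 and Ankrd37. They are in lower case with each core or its reverse complement in capitals, 5′ to 3′ in the direction of the gene. Of these genes, Slc16a1 and Ankrd37 did not pass the test of clone 2 described below. Slc16a1 is shown beside its relative Slc16a3 because both windows hold the core although the differences of the genes in clone 2 had opposite signs. For Ak4, which has 4 windows, the most upstream is shown, and Ndrg1 and Epas1 had none. CACGTG reads as a core on each strand and counts as 2 matches.
Slc2a1, chr4:119108495-119108794, plus strand: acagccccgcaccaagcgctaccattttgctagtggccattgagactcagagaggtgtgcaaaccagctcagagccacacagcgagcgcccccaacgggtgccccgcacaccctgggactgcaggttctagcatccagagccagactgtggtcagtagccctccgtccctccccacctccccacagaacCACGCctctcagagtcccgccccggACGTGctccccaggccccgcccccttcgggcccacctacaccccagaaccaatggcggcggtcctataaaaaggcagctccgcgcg
Slc16a3, chr11:120948817-120949116, plus strand: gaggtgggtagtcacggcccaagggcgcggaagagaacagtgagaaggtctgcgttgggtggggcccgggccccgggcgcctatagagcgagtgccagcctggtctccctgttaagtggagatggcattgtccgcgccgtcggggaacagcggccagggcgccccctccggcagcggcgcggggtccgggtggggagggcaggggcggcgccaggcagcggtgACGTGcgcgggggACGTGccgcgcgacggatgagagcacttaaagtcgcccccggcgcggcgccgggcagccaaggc
Slc16a1, chr3:104638414-104638713, plus strand: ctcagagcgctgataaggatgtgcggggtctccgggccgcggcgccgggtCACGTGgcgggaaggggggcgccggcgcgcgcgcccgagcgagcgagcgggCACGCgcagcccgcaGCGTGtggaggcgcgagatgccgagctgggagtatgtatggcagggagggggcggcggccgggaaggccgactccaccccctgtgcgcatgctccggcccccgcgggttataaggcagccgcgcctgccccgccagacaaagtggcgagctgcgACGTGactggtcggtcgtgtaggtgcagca
Ak4, chr4:101419039-101419338, plus strand: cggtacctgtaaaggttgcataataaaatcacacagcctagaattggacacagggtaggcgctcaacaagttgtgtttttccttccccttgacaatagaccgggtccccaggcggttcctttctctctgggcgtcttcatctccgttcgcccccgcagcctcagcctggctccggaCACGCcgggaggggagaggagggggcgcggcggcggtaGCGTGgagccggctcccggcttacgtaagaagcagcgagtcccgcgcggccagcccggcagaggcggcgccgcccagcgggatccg
Ankrd37, chr8:45999801-46000100, minus strand: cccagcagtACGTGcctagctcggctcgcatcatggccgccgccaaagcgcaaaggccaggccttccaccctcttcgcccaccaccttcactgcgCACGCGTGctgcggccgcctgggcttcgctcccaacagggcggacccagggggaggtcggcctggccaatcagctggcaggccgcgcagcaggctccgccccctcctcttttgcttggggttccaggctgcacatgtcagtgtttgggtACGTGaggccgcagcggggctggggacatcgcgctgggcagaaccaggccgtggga
By this count Slc2a1, Slc16a3 and the Ak4 window held 2 matches each, Ankrd37 held 4, of which 2 overlap, and Slc16a1 held 5. Among the others, Ldha had 7 matches in 1 of its windows and Bnip3 had 5, while the single window of Tpi1 had none.

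The median signal of the arrays was 79.6 in clone 2 and lay between 84.3 and 88.6 in the expressing lines, and the highest signal was 35549 in clone 2 against at least 39517 in the others. The labelled cell type was checked by 12 principal cell markers, whose summed signal was 12087 in clone 2 and 27637 to 32899 in the expressing lines. Of the 10 past the filter 4 fell in clone 2, against 1.86% of all genes. Among them were Npnt, at 3833 in clone 2 and 9723 to 11479 in the expressing lines, and Aqp2 itself, at 159 and 1066 to 6578. The labels describe clone 2 by its lack of AQP2, so the fall of Aqp2 is no separate result. Aqp3 was highest in clone 2, at 192 against 96.4 to 150 in the expressing lines, and did not pass. The vasopressin receptor gene Avpr2 had a signal of 1742 in clone 2 and of 1417 to 1746 in the expressing lines, while Kcnj1, the apical potassium channel of principal cells, was at 10.5 or less in every line. The summed signal of 7 intercalated cell markers was 1115 in clone 2 and 814 to 1130 in the expressing lines, that of 7 proximal tubule markers 294 against 941 to 1248, and that of 6 fibroblast markers 203 against 124 to 246. Foxi1, the factor that defines intercalated cells, was at 38.4 or less and the fibroblast collagen gene Col1a1 at 62.0 or less in all 6 lines. Within these lists the markers differed. Of the proximal tubule markers only Lrp2, the gene of the uptake receptor megalin, passed the filter, with 116 in clone 2 and 809 to 1067 in the expressing lines, and the other 6 were at 83.2 or less in every line. Of the intercalated cell markers the channel gene Aqp6 fell, with 39.0 in clone 2 and 222 to 328 in the expressing lines (-2.36, limma adjusted p = 0.00648), and the proton pump gene Atp6v1b1 had 949 in clone 2 and 413 to 687 in the expressing lines (0.70, adjusted p = 0.177). The part of these markers and of the principal cell sum in the results was not tested.

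The comparison of clone 2 with the expressing lines asks which steps of glucose use and of the hypoxia response separate the line labelled as lacking AQP2. The glucose transporter gene Slc2a1, the lactate exporter gene Slc16a3, the mitochondrial adenylate kinase gene Ak4 and the stress-induced gene Ndrg1 rose in clone 2, and no member fell. Most enzymes of the pathway had positive log2 differences that did not pass the test. The largest was 0.76, for Pfkp, close to the 0.77 of Slc2a1. The test was limma on log2(signal + 18.8), with Benjamini-Hochberg adjustment over all 22518 probe sets past the filter and an adjusted p under 0.05 called. Of the 30 members tested 4 were called higher and 0 lower, against 1.29% of all genes tested called higher and 1.86% called lower (0.817% and 1.67% of probe sets). At an unadjusted p under 0.05 the members numbered 15 higher and 1 lower, against 10.2% and 12.1% of genes (7.8% and 12.2% of probe sets). Ak4 and Slc16a3 passed the filter only through clone 2, their means in the expressing lines being 21.6 and 30.5, so any call for them had to be upward. Calls over all probe sets were more numerous without clone 9 and fewer without clone 10 or the original cells, and the member count moved likewise. The count of 4 became 8 without clone 9, 2 without clone 10 and 2 without the original cells, and no member was called lower in any setting.

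The members were chosen with earlier results of these data known, so the counts below are not those of a list chosen blind. Without a test, 25 of the 30 members had a positive log2 difference, against 51.5% of genes, and their median difference was 0.42, against 0.01 over all genes tested. Clone 2 had the highest signal of the 6 lines for 19 members, against 29% of genes, and the lowest for 3 (Slc16a1, Pfkfb3 and Egln1), against 26.9%. It lay above the expressing lines by more than their whole range for 13 members, against 8.92% of genes, and below them by more than that range for 1 (Slc16a1), against 4.82%. Slc16a3 and Ak4, which passed the filter only through clone 2, had to be counted among the 25, the 19 and the 13.

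**Figure D1:**
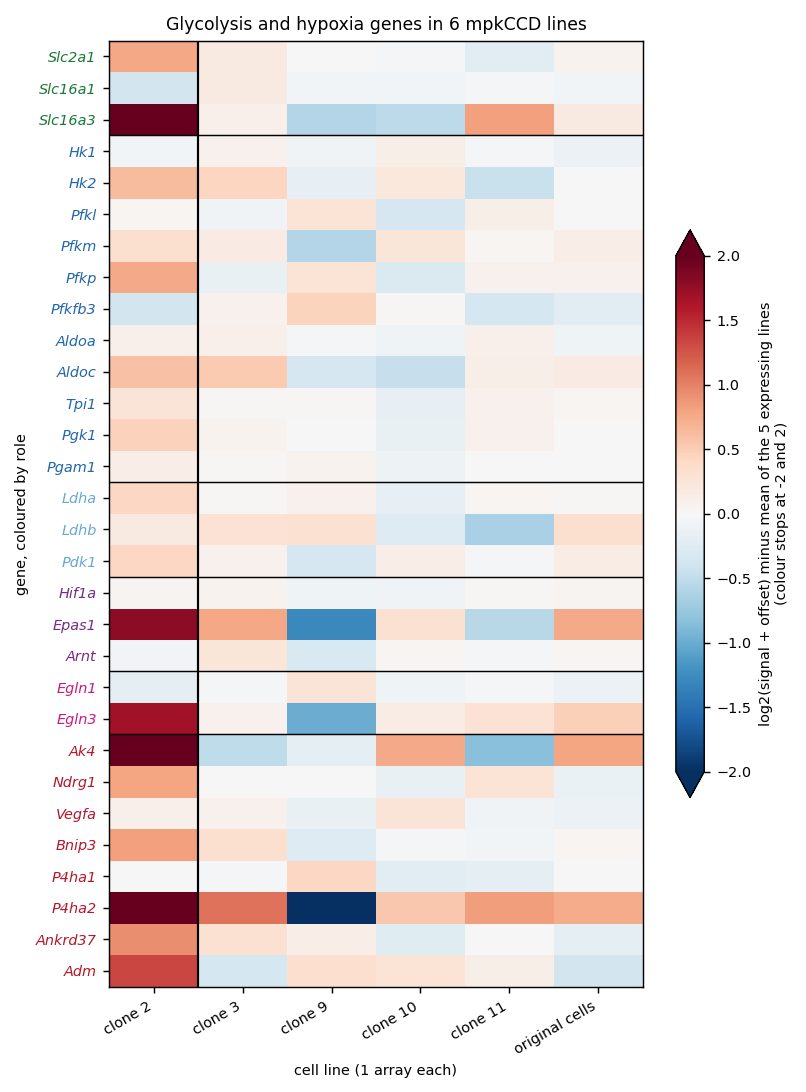
Each row is a gene, coloured by role, each column a line with 1 array, and the colour gives log2(signal + offset) minus the mean of the 5 expressing lines, stopping at -2 and 2. Clone 2, at the left, is the highest of the 6 lines for 19 of the 30 genes, and clone 9 has the darkest blue cells, for P4ha2, Epas1 and Egln3.

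Among the carriers, Slc2a1, which encodes the basal glucose transporter GLUT1, had a signal of 8568 in clone 2 and of 5692 in clone 3, 4996 in clone 9, 4913 in clone 10, 4332 in clone 11 and 5288 in the original cells. Clone 2 was above every expressing line, which averaged 5044 ± 502 (SD, n = 5). The log2 difference was 0.77 (SE 0.151, limma adjusted p = 0.0389), and the 2 other probe sets of the gene also rose, by 0.80 and 0.89. The call was lost without clone 10 (limma adjusted p = 0.0651), clone 11 (0.053) or the original cells (0.0829), and also when no filter (0.0803) or no mean-variance trend (0.104) was used.

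Slc16a3 encodes MCT4, the monocarboxylate carrier that exports lactate from highly glycolytic cells. Its signal reached 829 in clone 2, against 30.8 in clone 3, 12.03 in clone 9, 13.4 in clone 10, 62.4 in clone 11 and 33.7 in the original cells. The expressing lines were all low, in the range where MAS5 signals are mostly noise, and no detection call was used here. The log2 difference was 4.20 (SE 0.558, limma adjusted p = 0.00994). Against signals this low the size of the difference is not settled, and it lay between 3.72 and 5.03 over 13 other settings. Slc16a1, the gene of the widely expressed carrier MCT1, had a difference of the other sign, with 6365 in clone 2 and 9291 in clone 3, 7828 in clone 9, 7903 in clone 10, 8072 in clone 11 and 7857 in the original cells. Clone 2 lay below all of them, but the difference of -0.36 did not pass the test (SE 0.127, limma adjusted p = 0.164).

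**Figure D2:**
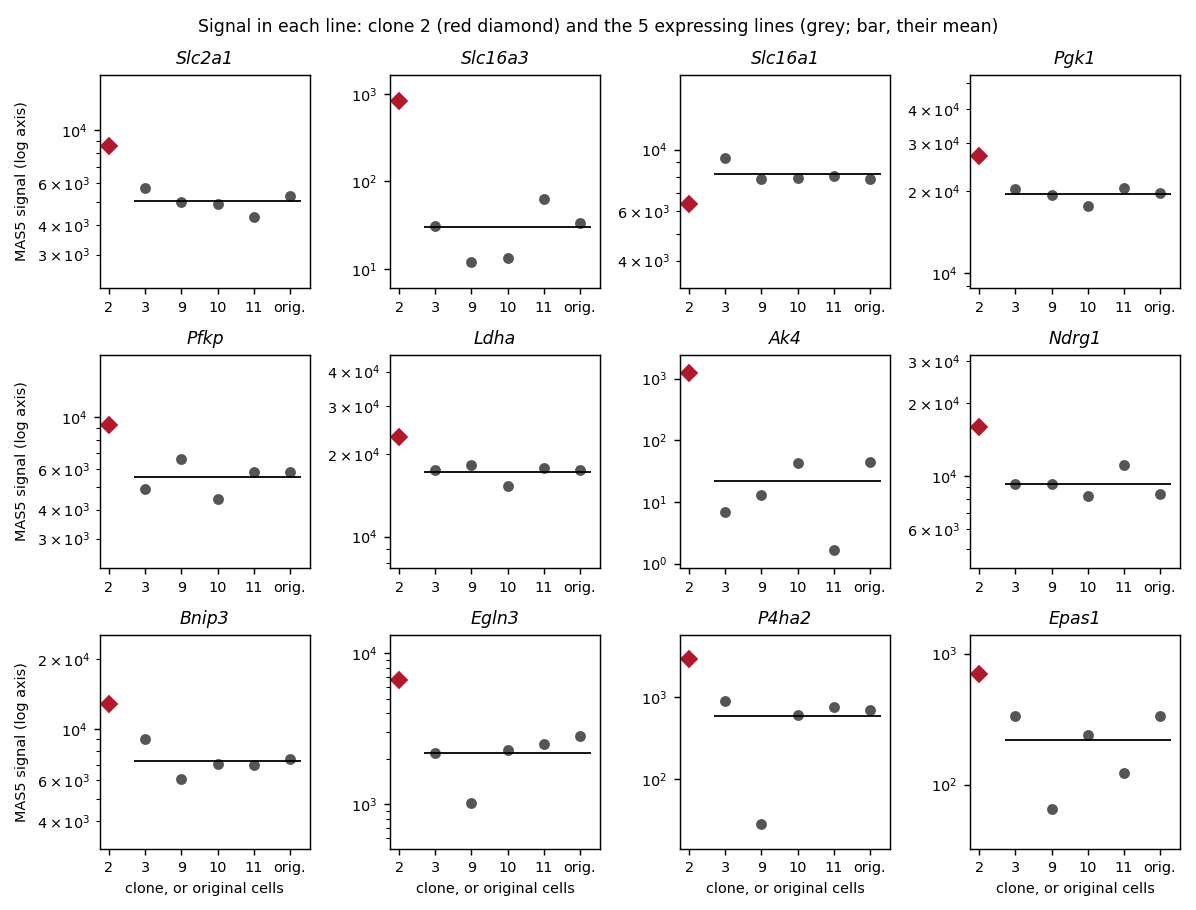
Each panel gives the MAS5 signal of 1 gene on a log axis in clone 2 (red diamond) and in the 5 expressing lines (grey points, with a bar at their mean). Clone 2 stands above every expressing line in 11 panels and below all of them for Slc16a1. Clone 9 is the lowest line for P4ha2, Epas1, Egln3 and Bnip3, and, at a signal near that of clone 10, for Slc16a3.

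Of the 11 glycolytic genes tested none passed in clone 2 by limma, and 4 were higher and 0 lower at an unadjusted p under 0.05, against 10.2% and 12.1% of all genes. Their log2 differences ran between -0.37 and 0.76, with a median of 0.26, and 9 were positive, against 51.5% of all genes. At the first step, the hexokinase gene Hk2 had 3405 in clone 2 against 2236 ± 520 (SD, n = 5), and Hk1, the form of most tissues, 5284 against 5472 ± 381. Hk2 was already 2943 in clone 3, so clone 2 lay above the others by less than their range, and Hk1 of clone 2 lay inside the range.

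Phosphofructokinase, which commits the sugar to the pathway, is built from subunits encoded by Pfkl, Pfkm and Pfkp, and their differences were unequal. Pfkp had a signal of 9308 in clone 2 and of 4917 in clone 3, 6636 in clone 9, 4463 in clone 10, 5834 in clone 11 and 5791 in the original cells. All expressing lines were lower, and the log2 difference was 0.76 (SE 0.195, limma adjusted p = 0.0758), which passed without clone 9 (0.0319). Pfkl had 11632 in clone 2 against 11439 ± 1787, and Pfkm 1283 against 1048 ± 212. Pfkfb3, whose product makes the activator of phosphofructokinase, had 461 against 613 ± 138 (each SD, n = 5).

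In the lower part of the pathway, Pgk1, which encodes the first ATP-forming step, had 26852 in clone 2 and 20467 in clone 3, 19328 in clone 9, 17600 in clone 10, 20622 in clone 11 and 19648 in the original cells. Clone 2 exceeded the expressing lines by 2.06 times their range, but the log2 difference of 0.46 was not past the test (SE 0.109, limma adjusted p = 0.0619); it was 0.69 and past it after quantile normalization (0.0115), and 0.95 and past it with the probe sets averaged (0.0463). Pgk1 is X-linked, and the median difference of the 297 X-linked genes tested was 0.47, so Pgk1 lay at -0.01 relative to it. On chromosome 10, with a median of -0.24, Hk1 lay at 0.19, Pfkl at 0.28 and P4ha1 at 0.24 relative to it. On chromosome 3, with a median of -0.20, Slc16a1 lay at -0.16 and Arnt at 0.14. The part of these chromosome-wide shifts in the values of Pgk1 and of the other members was not tested.

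The triose isomerase gene Tpi1 had 28828 in clone 2 against 24081 ± 1507 (log2 difference 0.26, limma adjusted p = 0.219; after quantile normalization 0.53 and past the test, 0.0267), and the mutase gene Pgam1 13690 against 12457 ± 552 (0.14). The aldolase genes Aldoa and Aldoc had 22920 against 21500 ± 1441 and 4132 against 2830 ± 799, with n = 5 and SD throughout. Clone 2 was the highest line for Tpi1, Pgam1 and Aldoc but not for Aldoa. The 3 control probe sets of Gapdh, which were not tested, were lower in clone 2, each at 0.911 to 0.914 times the mean of the expressing lines, with 27193 against 29766 ± 1849 for the one at the 3′ end. These bright values depend on how the arrays are scaled, as the values of Tpi1, Pgk1 and Ldha after quantile normalization show, and the Gapdh controls were not included in that setting.

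At the branch between lactate and mitochondria, Ldha, the main lactate dehydrogenase subunit of glycolytic cells, had 23066 in clone 2 and 17444 in clone 3, 18302 in clone 9, 15307 in clone 10, 17793 in clone 11 and 17538 in the original cells. It was above all expressing lines, with a log2 difference of 0.42 that did not pass (SE 0.114, limma adjusted p = 0.089), and that was 0.63 and past the test after quantile normalization (0.0179). Pdk1, the kinase that shuts pyruvate dehydrogenase, had 5646 against 4250 ± 549 (0.42, adjusted p = 0.245), and Ldhb, the subunit of oxidative tissues, had 141 against 126 ± 39.5 (SD, n = 5). All 3 differences were positive and none passed by limma, with 2 at an unadjusted p under 0.05.

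The transcripts of the HIF subunits differed from one another. Hif1a, the oxygen-regulated subunit found in most cells, had 8079 in clone 2 against 7824 ± 383, and Arnt, its constant partner, 1617 against 1693 ± 232 (SD, n = 5). Epas1, which encodes HIF-2 alpha, had a signal of 694 in clone 2 and of 333 in clone 3, 65.2 in clone 9, 237 in clone 10, 122 in clone 11 and 331 in the original cells. Clone 2 exceeded all others, but the expressing lines themselves ranged between 65.2 and 333, and the difference of 1.79 did not pass (SE 0.688, limma adjusted p = 0.192). Epas1 lies on chromosome 17, where the median of 507 genes was at -0.37.

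The prolyl hydroxylases that mark HIF differed as well. Egln3, a hydroxylase gene that HIF itself induces, had 6615 in clone 2 and 2183 in clone 3, 1018 in clone 9, 2269 in clone 10, 2519 in clone 11 and 2847 in the original cells. The groups did not overlap, the log2 difference was 1.68 (SE 0.438, limma adjusted p = 0.0792), and it passed without clone 9 (1.43, adjusted p = 0.00604). Egln1, the main oxygen sensor, had 2991 in clone 2 and 3129 to 4089 in the expressing lines, with a difference of -0.19.

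Among the other hypoxia-induced genes, Ak4, whose product is a mitochondrial adenylate kinase, was like Slc16a3 in being bright in clone 2 alone. Its signal reached 1226 in clone 2, against 6.82 in clone 3, 12.9 in clone 9, 42.6 in clone 10, 1.67 in clone 11 and 43.9 in the original cells. The expressing lines lay near the bottom of the scale, so the size depended on the offset: the log2 difference was 5.09 (SE 0.668, limma adjusted p = 0.00966) and ran between 4.45 and 6.65 over the settings, with the call lost at an offset of 0 (adjusted p = 0.0832). The probe set used carries an Affymetrix suffix for probes shared by several transcripts. A second probe set, without this suffix, rose as well, with 871 in clone 2 against 46.0 ± 13.8 (SD, n = 5; 3.81). The other 3 did not pass the filter and differed from one another. Of these, 1 had 82.1 in clone 2 and at most 26.7 in the expressing lines. Another had 29.0 in clone 2, 44.2 in clone 3 and at most 20.3 in the other lines. The last had 1.37 in clone 2, below every expressing line. Of the other adenylate kinases only Ak3, of the mitochondrial matrix, passed the filter, with 2161 in clone 2 against 3452 ± 282 (-0.67, adjusted p = 0.0534).

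Ndrg1, a gene raised by many stresses, had 15932 in clone 2 and 9277 in clone 3, 9261 in clone 9, 8269 in clone 10, 11106 in clone 11 and 8430 in the original cells. All lines with AQP2 were lower, and the log2 difference was 0.79 (SE 0.156, limma adjusted p = 0.0397). The call was lost without clone 3 (0.0674), clone 10 (0.0583) or the original cells (0.0863), and also when no filter (0.0971) or no mean-variance trend (0.111) was used and when probe sets were averaged per gene (0.0504). The probe set used carries the Affymetrix suffix for probes that can match other transcripts. The other probe sets of Ndrg1 also rose, by 0.69 to 0.80, but none of them passed (limma adjusted p between 0.0503 and 0.0933). In its family Ndrg4 fell, with 117 in clone 2 against 401 ± 44.8 (SD, n = 5; -1.62, limma adjusted p = 0.0106), and Ndrg2 and Ndrg3 did not pass the test.

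Bnip3, which directs mitochondria to autophagy, had 12746 in clone 2 and 9014 in clone 3, 6081 in clone 9, 7034 in clone 10, 6952 in clone 11 and 7405 in the original cells. Its difference of 0.81 lay just short of the threshold (SE 0.181, limma adjusted p = 0.0537) and passed in 6 of 14 other settings, among them without clone 3 (0.032) and without clone 9 (0.0352). Ankrd37, an ankyrin repeat gene induced by HIF, had 1054 in clone 2 and 673, 599, 455, 544 and 470 in clones 3, 9, 10 and 11 and the original cells (0.93, adjusted p = 0.0694). Adm, the gene of the vasodilator adrenomedullin, had 269 in clone 2 and 69.4 to 126 in the expressing lines (1.33, adjusted p = 0.0938). For these 3 genes clone 2 was above every other line by more than the range of those lines.

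The collagen prolyl hydroxylases differed between their subunits. P4ha2 had 2867 in clone 2 and 891 in clone 3, 28.5 in clone 9, 607 in clone 10, 746 in clone 11 and 699.8 in the original cells. With clone 9 so low, the difference of 2.74 did not pass (SE 1.31, limma adjusted p = 0.282), and without clone 9 it was 1.95 (adjusted p = 0.00479). P4ha1 had 2467 against 2495 ± 470, and Vegfa, the gene of the endothelial growth factor, had 1188 against 1108 ± 138 (SD, n = 5). Car9 had 62.6 in clone 2 and 42.7 to 83.7 in the expressing lines, below the filter in each of them.

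**Figure D3:**
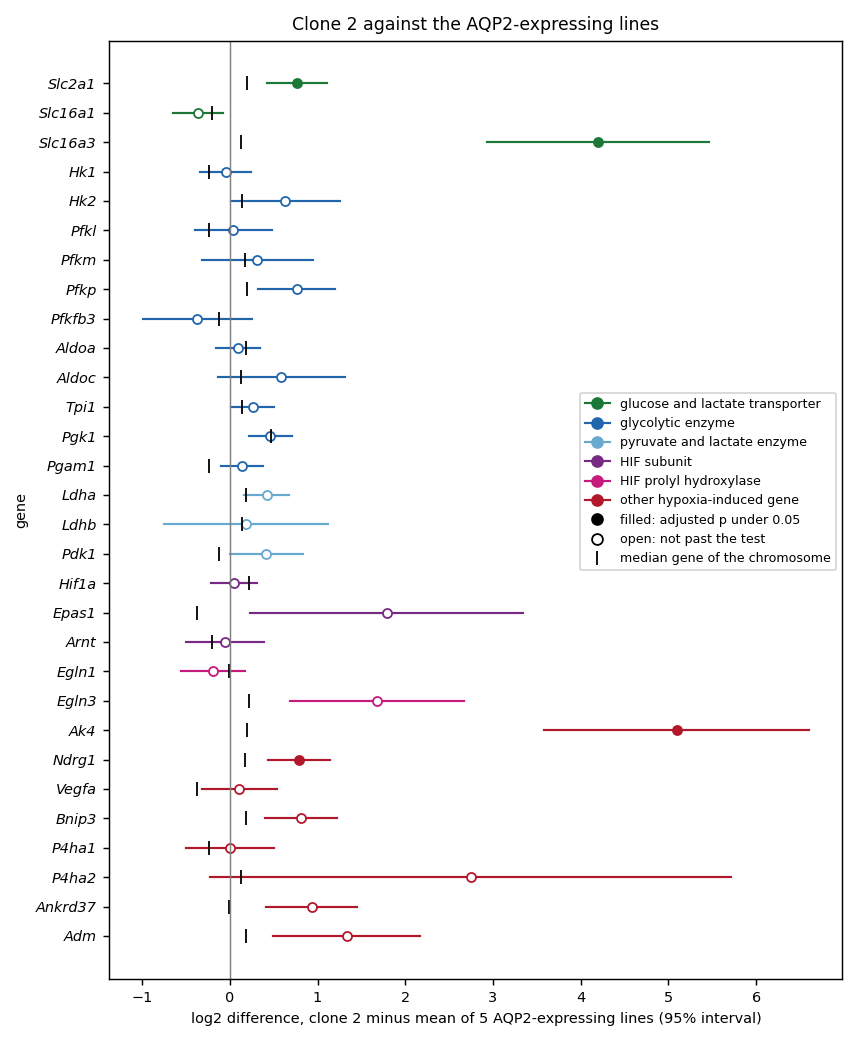
Points give the log2 difference of clone 2 from the mean of the 5 expressing lines with its 95% interval from limma, filled where the adjusted p was under 0.05, and ticks mark the median difference of all tested genes on the same chromosome. Slc2a1, Slc16a3, Ak4 and Ndrg1 are filled, Pgk1 sits on the tick of the X chromosome, and the widest interval is that of P4ha2.

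Several members were read by more than 1 probe set. Of 18 members with several past the filter, 13 had a single sign in all of them, and of the 64 member probe sets 8 were called, all higher, against 0.817% of all probe sets called higher and 1.67% called lower. Of these 8, 2 were sets of Ak4 and 1 of Slc16a3, for which a call could only be upward. For Pgk1 the differences were 0.46, 0.47 and 1.90, and the last was called (limma adjusted p = 0.0469), with 20598 in clone 2 against 5800 ± 2121 (SD, n = 5). This set carries the Affymetrix suffix for probes that can match other transcripts. For Aldoa the probe set used here, also of that kind, gave 0.09, and the other 4 gave 0.19 to 0.48, none of them called. Aldoc and Egln1 had probe sets of opposite sign, at 0.59 and -0.17 and at -0.19 and 0.28.

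**Figure D4:**
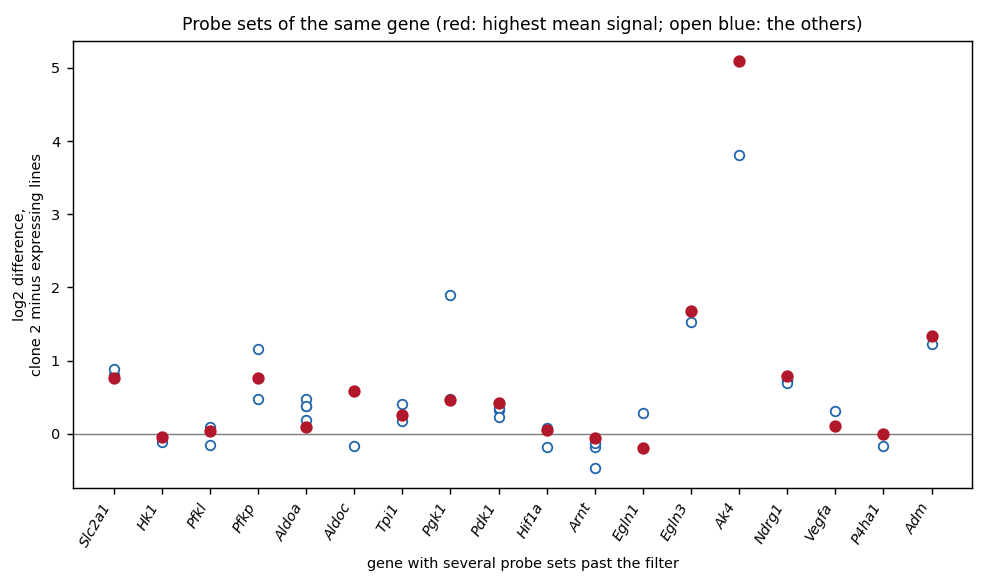
For each of the 18 genes with several probe sets past the filter, the red point is the probe set of highest mean signal, used in the text, and open blue points are the others, as log2 difference of clone 2 from the expressing lines. The sets of Slc2a1, Ndrg1, Egln3 and Adm lie close together, and 1 set of Pgk1, at 1.90, lies apart from the other 2.

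Further genes of the same pathways, from lists chosen with earlier results of these data known, gave 3 calls in all. Of 24 other glycolysis and pyruvate genes tested 1 rose and 0 fell, against 1.29% and 1.86% of all genes, with a median log2 difference of 0.08. The one was Pgm1, a phosphoglucomutase that links glycogen and glycolysis, with 2923 in clone 2 against 1688 ± 104 (SD, n = 5; 0.79, limma adjusted p = 0.0329). Pkm, the pyruvate kinase that ends the pathway, had 13087 in clone 2 and 12998 in clone 3, 18072 in clone 9, 11334 in clone 10, 16147 in clone 11 and 14287 in the original cells, and its difference of -0.14 did not pass (adjusted p = 0.763). Mpc1, part of the carrier that takes pyruvate into mitochondria, had 788 against 1434 ± 219 (-0.84, adjusted p = 0.0674) and lies on chromosome 17.

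Of 25 other HIF regulators and hypoxia-induced genes tested 2 rose and 0 fell, against 1.29% and 1.86% of all genes, with a median of 0.24. Ero1a, an oxidase of the endoplasmic reticulum, had 6282 in clone 2 against 3714 ± 261 (SD, n = 5; 0.76, limma adjusted p = 0.0312), and Jmjd6, a hydroxylase of the Jumonji family, had 1458 against 756 ± 64.6 (0.94, adjusted p = 0.0331). Vhl, whose product marks hydroxylated HIF for destruction, had 969 in clone 2 and 744 to 840 in the expressing lines and did not pass (adjusted p = 0.33).

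The study's design set transcript levels against Aqp2 mRNA across the lines, and the members were therefore also fitted on the log2 value of Aqp2. This fit shares clone 2, the line lowest in Aqp2, with the comparison above and is no independent result. Ak4 alone was called, and since it passed the filter only through clone 2, the line lowest in Aqp2, a called slope for it could only be negative. It had a slope of -1.02 per log2 unit of Aqp2 (SE 0.188, limma adjusted p = 0.0379), and no member had a called positive slope, against 1.01% of genes called negative and 1.22% called positive (0.742% and 1.02% of probe sets). At an unadjusted p under 0.05, 13 slopes were negative and 0 positive, against 10.1% and 11.9% of genes (8.56% and 11.3% of probe sets). Of the 30 slopes 25 were below 0, against 50.4% of genes, and their median was -0.08. Slc2a1 (-0.16, limma adjusted p = 0.0545), Hk2 (-0.19, 0.0559) and Bnip3 (-0.17, 0.0581) lay just short of the threshold.

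Within the 5 expressing lines alone, where Aqp2 ranged between 1066 in clone 10 and 6578 in clone 11, no member passed by limma. An unadjusted p under 0.05 was found for 3 members, near the share over all genes (1335 of 10341). Over all probe sets 3 of 22517 passed, 0.0133%, and 11.5% had such a p. Negative slopes numbered 15 of 30, against 49.1% of genes, with a median of -0.01. The 3 members were Hk2, at -0.27 (SE 0.0743), Pfkl, at 0.19 (SE 0.0511), and Pfkp, at 0.19 (SE 0.0537). With clone 2 included the slope of Pfkp was -0.09 (SE 0.0601, limma adjusted p = 0.430), so neither of its slopes passed the test. The slope of Ak4 was -0.32 without clone 2 (limma adjusted p = 0.759), and with clone 2 kept its call was lost without clone 9 (0.0503), clone 11 (0.0941) or the original cells (0.0576).

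**Figure D5:**
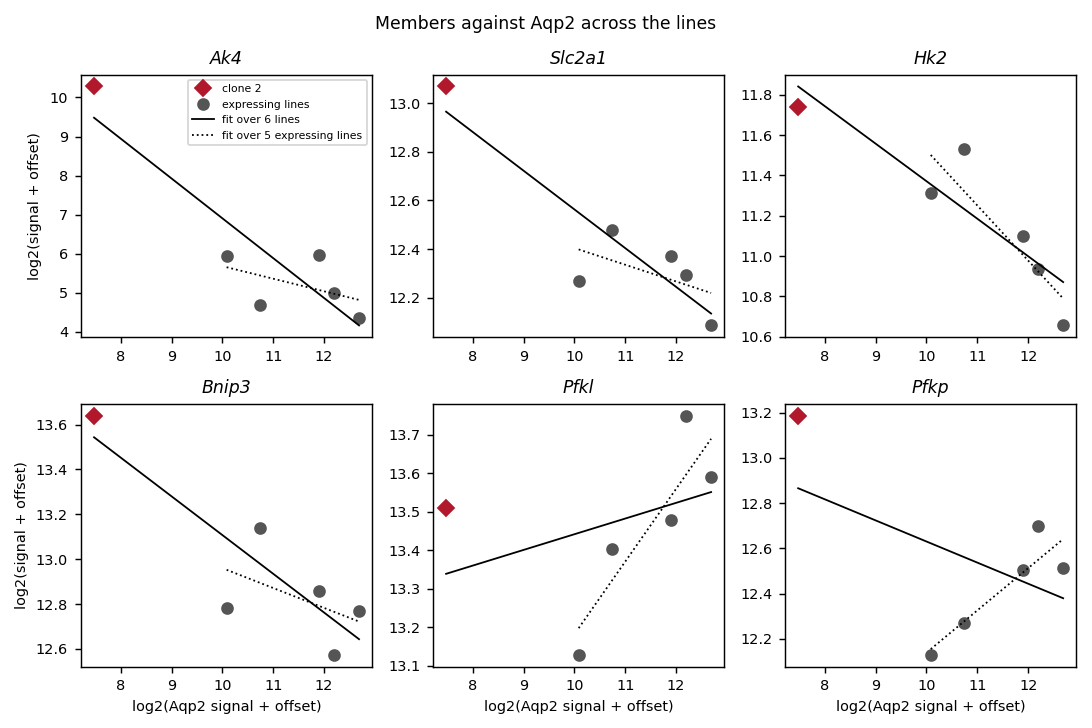
Each panel sets log2(signal + offset) of 1 gene against that of Aqp2 in clone 2 (red diamond) and the 5 expressing lines (grey), with the line fitted over all 6 (solid) and over the 5 expressing lines (dotted). The fitted line of Pfkp turns from falling to rising when clone 2 is left out, and that of Hk2 falls in both fits. Neither gene passed the test in either fit.

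Among the expressing lines, clone 3 was above the mean of these lines for 24 of the 30 members, against 12 in clone 9, 12 in clone 10, 16 in clone 11 and 18 in the original cells. Such shares were not computed over all genes. On the log2 scale, the median deviation from the mean of the expressing lines, which centring holds near 0, ran between -0.06 in clone 10 and 0.09 in clone 3. Over all genes this median was -0.005 in clone 10 and 0.003 in clone 3. Clone 9 was the lowest of all 6 lines for 10 members, against 22.1% of genes, and the lowest expressing line for 11 members, against 28.2% of genes, and clone 10 for 10, against 22%. Clone 3 was the highest for 11, against 17.8%. The coefficient of variation over the 5 lines had a median of 15.1% for the members and 13.1% over all genes tested, and it was 4.43% for Pgam1, 4.90% for Hif1a, 6.19% for Pgk1 and 6.26% for Tpi1, against 55.9% for P4ha2 and 55.8% for Epas1. It was higher still for Slc16a3 (66.9%) and Ak4 (93.6%), whose signals in these lines were near the bottom of the scale.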

How the data were processed

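RNA of 6 mpkCCD lines was measured on Affymetrix mouse arrays, 1 per line. The authors deposited linear MAS5 intensity values. The submitters' processing notes name Affymetrix Expression Console 1.1 as the software. On each array the mean without the lowest and highest 2.0% of values was 500.0, so a shift common to most transcripts is removed. No counts exist, and the number of arrays limits the precision.

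Control probe sets (64) were left out, which left 45037, of which 34945 were annotated to 1 gene, 932 to several and 9160 to none. An offset of 18.8, the 25th percentile, was added before log2, which understates differences of dim genes. Those brighter on average than the median (85.5) were fitted with limma 3.58.1 in R 4.3.3 with a mean-variance trend and 4 residual degrees of freedom. The p-values were adjusted by Benjamini-Hochberg over 22518 probe sets. The fits were also run on simulated data in which each probe set had the same spread in every line. Such data cannot show whether clone 2 varies as the other lines do. The slope was fitted on log2 Aqp2 over 22517. Nothing in the labels says that lines were cultured or hybridised separately. The p-values of the clone 2 test set its difference against the spread between the arrays of the expressing lines. Those of the slope use the spread of the arrays around the fitted line. Members with a call, or with clone 2 beyond the range of the other lines by more than that range, were described in full and the others by role. The members and lists were chosen with earlier results of these data known.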

Additional observations from a re-analysis of the deposited data

Results flagged for a closer look

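For 7 of the 30 members 1 of the 5 expressing lines stood apart, its distance to the nearest other line, as a share of the whole range on the log2 scale, being above the critical value of 0.71. Chance gives about 1 such line in 20 groups, and 30 groups were examined. The share of all genes flagged by this rule was not computed, so the count is not shown to be particular to the members. Clone 9 was the low line for P4ha2 (0.873), Pfkm (0.759) and Egln3 (0.741) and the high line for Egln1 (0.746). Clone 10 was the low line for Ldha (0.731) and Tpi1 (0.715), and clone 3 the high line for Slc16a1 (0.821). P4ha2 had a signal of 28.5 in clone 9, where the other 4 expressing lines had 607 to 891.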

How the results depend on the processing

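The count of members higher in clone 2, 4 as reported, was 2 with no filter, 8 after quantile normalization and 2 without the mean-variance trend, and lay between 2 and 8 when each expressing line was left out. Counts of members lower in clone 2 and of positive slopes on Aqp2 were 0 in every setting. The count of negative slopes, 1 as reported, was 0 at an offset of 0, with no filter, without the trend, with probe sets averaged per gene and in the expressing lines only, 2 after median centring, 3 with the filter at the 75th percentile and 4 with robust variances, and lay between 0 and 4 when each expressing line was left out. The median difference of the members, 0.42 as reported, was 0.32 with the filter at the 75th percentile, 0.54 after quantile normalization, 0.51 after median centring and 0.32 with probe sets averaged, and lay between 0.39 and 0.44 when each expressing line was left out. Subtracting the median of each chromosome, an alternative chosen after seeing the data, also gave 0.42. Median centring moved the median of all genes to 0.11 and the calls over all probe sets to 254 higher and 232 lower, against 184 and 376 as reported. Over all probe sets the calls were 76 and 134 with no filter, 69 and 150 without the trend, and 325 and 618 without clone 9. After quantile normalization Tpi1, Pgk1, Ldha and Bnip3 were also called, and without clone 9 Pfkp, Egln3, Bnip3 and P4ha2. The cause of these changes was not tested. No paired analysis was possible because the labels give the lines no shared replicate numbers and clone 2 has 1 array. Signals near the offset, as of Slc16a3 and Ak4 in the expressing lines, limit the size of the differences.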
